A study of Mus musculus with 12 samples.

Results

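Pecam1, Icam2, Itga6 and Itgb2 are 4 of the 561 genes of the NanoString mouse immunology panel, which reads barcoded probes bound to RNA molecules without amplification. They were chosen by name as adhesion genes once the fold changes of these same samples were known, although which fold changes chose them is not recorded. All 4 are among the 21 genes that an edgeR fit of these counts put lower after hypoxia than after blood loss. The values of all 3 comparisons were therefore counted as used in the choice, and they are given as a description: calls of these 4 genes are counted where the fit made them, but no p-value is given for them and nothing is supported with them.

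RNA came from 500000 splenic cells per sample, enriched on magnetic beads with an antibody against Ter-119, a surface marker of the red cell lineage. All mice were adult male F1 mice from CBA and C57BL/6 parents, 3 to 5 months old, with spleens taken on day 3. Acute hypoxia (4 samples) meant 16 h in a hypobaric chamber at -46 kPa, an altitude above 4500 m. Acute blood loss (4 samples) meant removal of 0.5 to 0.8 mL of blood from behind the eye, with isoflurane anaesthesia, and normal mice (3 samples used) were kept in standard housing. The labels do not tie a sample to an animal, so standard errors and p-values reflect only how samples vary, and some of that variation may be technical. Magnetic enrichment leaves other blood and spleen cells in the sample, and in such bulk RNA fewer cells of a type and less RNA per cell cannot be told apart.

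Adhesion molecules let blood cells stop on vessel walls, settle in niches and touch each other. Pecam1 (CD31) and Icam2 are immunoglobulin-fold proteins of endothelium, platelets and leukocytes; Pecam1 binds itself across cell junctions, and Icam2 is a ligand of the leukocyte integrin LFA-1. Integrins are pairs of an alpha and a beta chain. Itgb2 (CD18) is the beta chain that leukocyte integrins share, joining Itgal to form LFA-1, Itgam to form Mac-1 or Itgax. Itga6 (CD49f) is the alpha chain of laminin receptors and pairs with Itgb1 or Itgb4. Erythroblasts themselves hold on to macrophages and matrix largely through integrins made with Itgb1, Itga4 among their alpha chains. Pecam1 and Icam2 are also near neighbours on one chromosome, with 2 protein-coding genes between them in the RefSeq annotation of GRCm38.p6.

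Total counts were 44254 to 81370 in the hypoxia samples, 7016 to 31006 in the blood loss samples and 43956 to 253712 in the normal samples. The deposited Normal 4 column was left out, because in each of the 561 genes it lay 3 above the median of the remaining normal columns. Levels below are housekeeping-scaled counts, the raw count divided by a sample factor from 6 housekeeping genes. These were unsteady themselves: scaled Rpl19 was 2286, 449.6 and 1022 in Normal 1, Normal 2 and Normal 3. The authors' normalized count, scaled with all panel genes, is given as a second scale for the 4 genes and for some of the marker sums. Raw counts of the 4 genes were low, at 8 to 140 in hypoxia, 5 to 81 in blood loss and 24 to 849 in normal samples. A count of 5 has an exact 95% Poisson interval of 1.62 to 11.7, which covers counting error only. Probes differ in efficiency, so levels are compared between samples of one gene and not between genes.

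Pecam1, Icam2 and Itgb2 were lowest after hypoxia on the housekeeping scale, while mean Itga6 was highest after blood loss, from raw counts of 5 to 16. Mean Itgb2 was 20.7 ± 5.34 in hypoxia samples, 53.4 ± 8.92 in blood loss samples and 54.7 ± 8.55 in normal samples (SD, n = 4, 4 and 3). Mean Itga6 was 11.2 ± 2.84 in hypoxia samples, 32.0 ± 16.3 in blood loss samples and 17.97 ± 8.25 in normal samples (SD, n = 4, 4 and 3). Which of these differences cleared the spread between samples depended on the gene and on the library scaling.

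**Figure D1:**
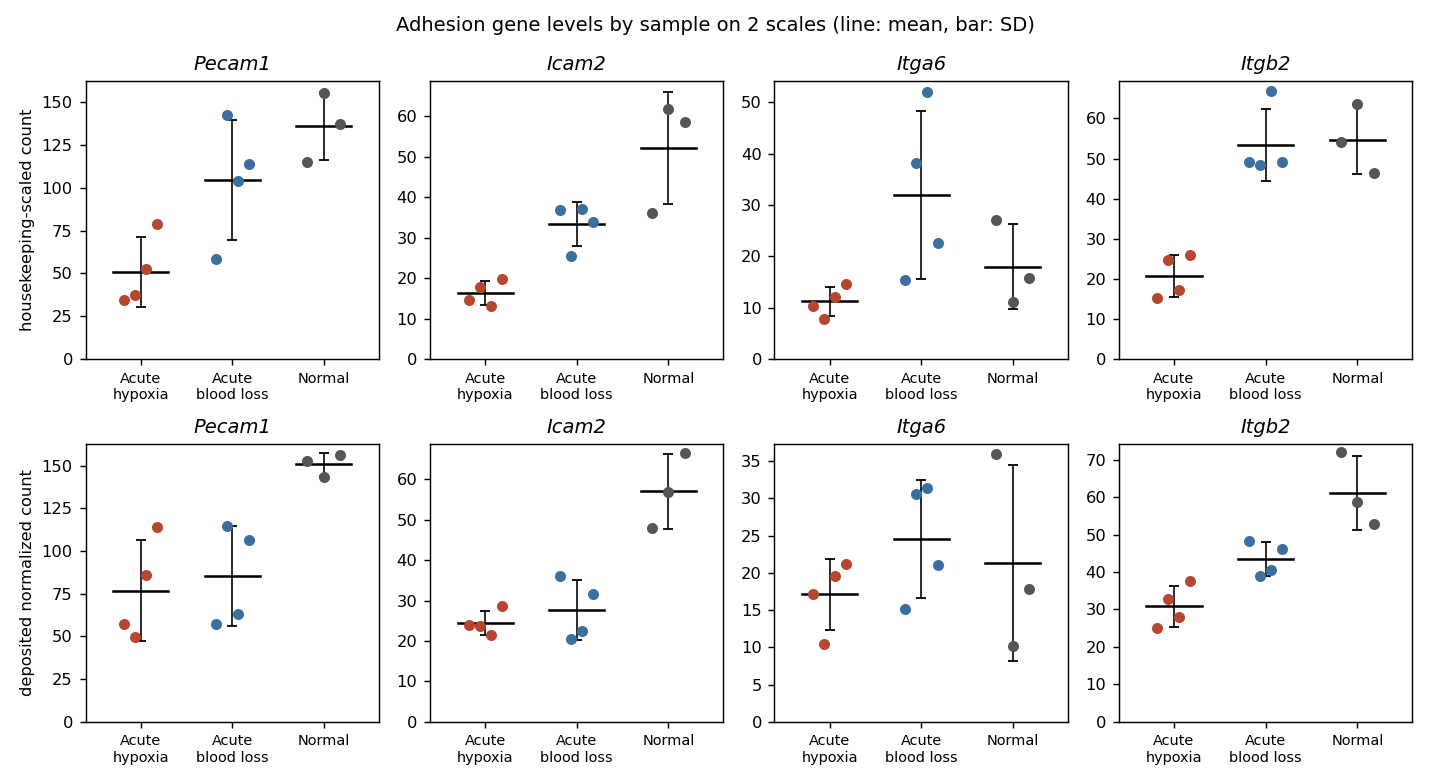
Levels of Pecam1, Icam2, Itga6 and Itgb2 in every sample, as housekeeping-scaled counts (upper row) and as deposited normalized counts (lower row), each axis starting at 0. Points are samples, the horizontal line is the group mean and the bar its SD (n = 4 hypoxia, 4 blood loss, 3 normal). Hypoxia Itgb2 lies below both other groups on both scales, whereas hypoxia and blood loss Icam2 separate on the upper scale only.

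Pecam1, the junction protein, had raw counts of 50, 38, 92 and 140 in Hypoxia 1 to 4, 19, 56, 14 and 81 in Blood loss 1 to 4, and 102, 504 and 849 in Normal 1 to 3. Scaled to the housekeeping genes it stood at 34.5, 37.4, 52.5 and 78.8 in hypoxia samples, 58.4, 142.5, 103.8 and 113.9 in blood loss samples, and 115.3, 155.3 and 137.3 in normal samples. All 4 hypoxia samples were below all normal samples, but Hypoxia 4 was above Blood loss 1. The log2 fold change was -1.41 (SE 0.31) for hypoxia against normal, -1.04 (SE 0.31) for hypoxia against blood loss and -0.37 (SE 0.32) for blood loss against normal. The mean was 50.8 ± 20.3 in hypoxia samples, 104.7 ± 34.9 in blood loss samples and 135.9 ± 20.1 in normal samples (SD, n = 4, 4 and 3). The hypoxia and blood loss means differed by more than either SD, yet their samples overlapped.

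On the deposited scale Pecam1 was 57.1, 49.9, 86.0 and 114.2 in hypoxia samples, 57.3, 114.4, 62.9 and 106.5 in blood loss samples, and 152.8, 143.3 and 156.0 in normal samples. There both treatments lay below every normal sample and covered nearly the same range. The order of Pecam1 from hypoxia upward to normal was thus the same on both scales, but the step between the treatments was not resolved from the spread on the deposited scale.

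Icam2, the LFA-1 ligand, had raw counts of 21, 18, 23 and 35 in Hypoxia 1 to 4, 12, 10, 5 and 24 in Blood loss 1 to 4, and 32, 200 and 362 in Normal 1 to 3. Its housekeeping-scaled levels were 14.5, 17.7, 13.1 and 19.7 in hypoxia samples, 36.9, 25.5, 37.1 and 33.7 in blood loss samples, and 36.2, 61.6 and 58.5 in normal samples. The hypoxia samples lay below both other groups, and the blood loss samples overlapped the normal group only at Normal 1. Icam2 had the lowest hypoxia-to-normal fold change of the 4 genes, at -1.71 on the log2 scale (SE 0.27), with 19 of the 252 tested genes lower still. Against blood loss the hypoxia fold change was -1.01 (SE 0.31), and blood loss against normal gave -0.70 (SE 0.30).

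The deposited scale showed Icam2 at 23.98, 23.6, 21.5 and 28.5 in hypoxia samples, 36.2, 20.4, 22.5 and 31.6 in blood loss samples, and 47.9, 56.9 and 66.5 in normal samples. Every treated sample was below every normal sample, and the treatments overlapped. Hypoxia Icam2 lay inside the blood loss range of 20.4 to 36.2, so the 2 treatments could not be ordered for this gene.

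Itgb2, the shared leukocyte beta chain, was the gene of the 4 whose hypoxia samples lay below both other groups on the housekeeping and the deposited scale. Relative to the sample's median endogenous gene, hypoxia Itgb2 was 2.2 to 2.88 and overlapped blood loss at 2.71 to 3.2. Normal samples lay above hypoxia there, at 3.09 to 4. Raw counts were 22, 25, 30 and 46 in Hypoxia 1 to 4, 16, 19, 9 and 35 in Blood loss 1 to 4, and 48, 206 and 287 in Normal 1 to 3. Housekeeping-scaled levels were 15.2, 24.6, 17.1 and 25.9 in hypoxia samples, 49.2, 48.4, 66.7 and 49.2 in blood loss samples, and 54.2, 63.5 and 46.4 in normal samples. The highest hypoxia sample was far under the lowest sample of the other groups, and blood loss and normal samples were intermingled. The log2 fold change was -1.40 (SE 0.27) for hypoxia against normal and -1.32 (SE 0.29) for hypoxia against blood loss, and -0.08 (SE 0.29) for blood loss against normal. The deposited scale gave 25.1, 32.8, 28.0 and 37.5 in hypoxia samples, 48.3, 38.8, 40.4 and 46.0 in blood loss samples, and 71.9, 58.6 and 52.7 in normal samples. Here the 3 groups did not overlap at all, and blood loss took a middle place that it did not have on the housekeeping scale.

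Itga6, the laminin receptor chain, was the gene of the 4 with a positive fold change in blood loss against normal. Raw counts were 15, 8, 21 and 26 in Hypoxia 1 to 4, 5, 15, 7 and 16 in Blood loss 1 to 4, and 24, 36 and 97 in Normal 1 to 3. These are counts close to the middle of the panel: relative to the sample's median endogenous gene they were 0.889 to 1.62 in hypoxia, 1 to 2.33 in blood loss and 0.61 to 2 in normal samples. That median was itself only 3 to 11 counts in blood loss, 9 to 16 in hypoxia and 12 to 93 in normal samples. Itga6 counts may therefore include background, which the small blood loss factors would raise most. The part of background in its blood loss level was not tested. Housekeeping-scaled Itga6 was 10.3, 7.87, 12.0 and 14.6 in hypoxia samples, 15.4, 38.2, 51.9 and 22.5 in blood loss samples, and 27.1, 11.1 and 15.7 in normal samples. All hypoxia samples were below all blood loss samples, though Hypoxia 4 and Blood loss 1 nearly touched, and the normal samples spanned both. The log2 fold change was -1.33 (SE 0.41) for hypoxia against blood loss, 0.79 (SE 0.41) for blood loss against normal and -0.54 (SE 0.37) for hypoxia against normal. On the deposited scale the groups overlapped in all 3 comparisons, with 10.5 to 21.2 in hypoxia, 15.1 to 31.4 in blood loss and 10.2 to 36.0 in normal samples.

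Counts of calls are set here beside the share of all 252 tested genes, with a call at a Benjamini-Hochberg adjusted p under 0.05 in edgeR's quasi-likelihood test. For hypoxia against blood loss 4 of the 4 genes were called lower, where 8.33% of all tested genes were. For hypoxia against normal 3 of the 4 were called lower (Pecam1, Icam2 and Itgb2), where 32.9% of all tested genes were. For blood loss against normal 0 of the 4 were called lower or higher, where 17.1% of all tested genes were called lower and 9.92% higher, and 103 of the 252 had an unadjusted p under 0.05. Nothing is read from these counts, since the genes were chosen with the contrasts known. The 3 comparisons share samples, so their calls are not independent of each other.

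The same counts by overlap depended on the scale. On the housekeeping scale the hypoxia samples lay wholly below the blood loss samples for 3 of the 4 genes (Icam2, Itga6 and Itgb2), against 10.3% of all tested genes. On the deposited scale this held for 1 of the 4, Itgb2, against 1.19% of all tested genes. Hypoxia lay wholly below normal for 3 of the 4 on both scales, against 34.1% of all tested genes on the housekeeping scale and 19.4% on the deposited scale. Blood loss lay wholly below normal for 0 of the 4 on the housekeeping scale (15.9% of all) and for 3 of the 4 on the deposited scale (46% of all).

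Library scaling moved all genes together and decided several of these statements. Over 6 scalings the log2 fold change of the median tested gene ran from -0.25 to 0.60 for hypoxia against blood loss, from -0.49 to 0.02 for hypoxia against normal and from -0.63 to 0.05 for blood loss against normal. A scaling shifts all genes of a sample alike, so fold changes of the 4 genes moved by nearly the same amounts and their distance from that median is nearly fixed by construction. Relative to that median, hypoxia against blood loss lay at -0.82 to -0.79 for Pecam1, -0.80 to -0.75 for Icam2, -1.09 to -1.07 for Itga6 and -1.10 to -1.07 for Itgb2. Hypoxia against normal, taken the same way, was -0.92 for Pecam1 under all 6 scalings, -1.22 to -1.19 for Icam2 and -0.91 to -0.90 for Itgb2, while Itga6 lay at -0.08 to -0.05. Itga6 was thus the gene of the 4 that lay near the panel median in that comparison. Blood loss against normal put Itga6 0.97 to 1.03 above the median, Itgb2 0.13 to 0.17 above it, Pecam1 -0.14 to -0.13 from it and Icam2 -0.49 to -0.42 from it.

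**Figure D2:**
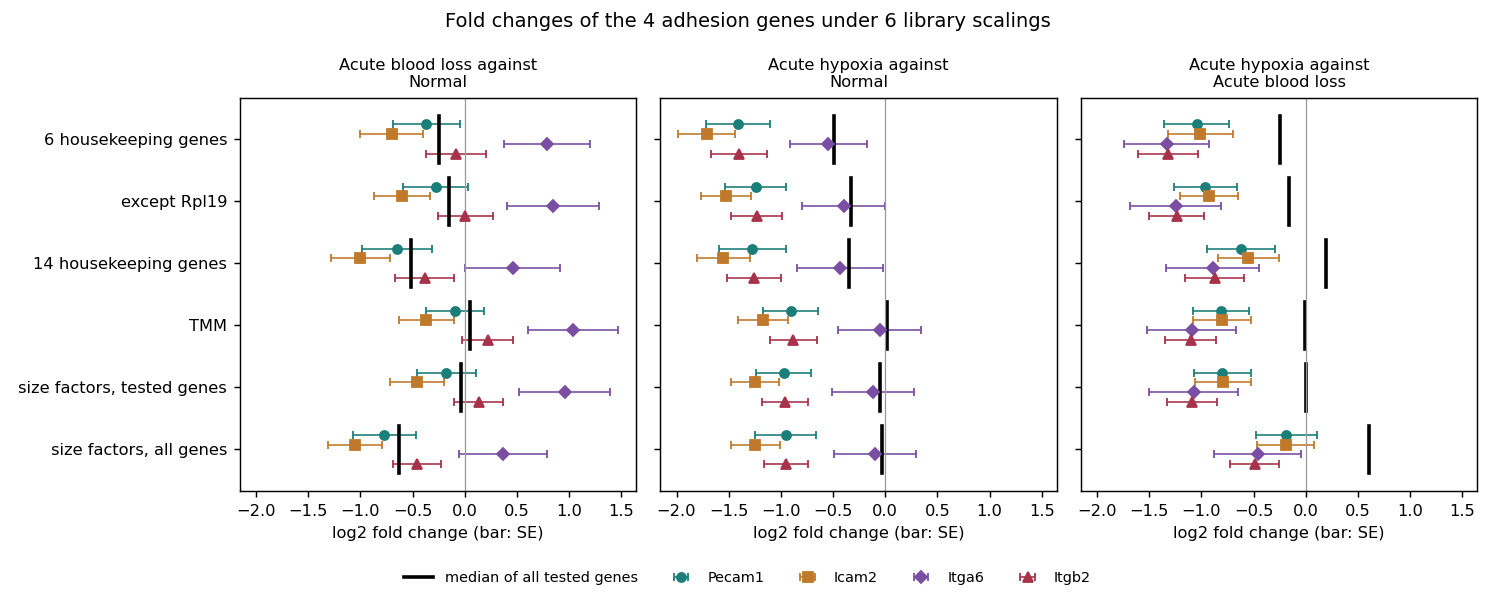
Log2 fold changes of the 4 genes (coloured markers, bars show the SE) in the 3 comparisons under 6 library scalings, one per row, with the median of all 252 tested genes as a black bar. Markers and median shift together from row to row. Itga6 lies right of the median in blood loss against normal and close to it in hypoxia against normal.

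The calls rest on the samples with which the genes were chosen, so how often they held is a description of the fits and supports nothing. The call of Itgb2 in hypoxia against blood loss held in 11 of 11 fits that each left out 1 sample and under 3 of the 5 other scalings. It was lost with size factors over all panel genes (log2 fold change -0.49) and with all 14 housekeeping genes (-0.87). The calls of the other 3 genes in that comparison were marginal. Pecam1 kept its call in 4 of 11 leave-outs and under 0 of 5 scalings, Icam2 in 3 of 11 and 1 of 5, and Itga6 in 4 of 11 and 0 of 5. For Pecam1 the call was lost without Normal 3, Blood loss 2, 3 or 4 and Hypoxia 1, 2 or 3. Leaving out the same samples ended the call of Itga6, and for Icam2 leaving out Blood loss 1 did so too. In the fits that lost the call, the fold change was -1.06 to -0.85 for Pecam1, -1.12 to -0.91 for Icam2, and -1.50 to -1.14 for Itga6. In hypoxia against normal, by contrast, the calls of Pecam1, Icam2 and Itgb2 held in 11 of 11 leave-outs and 5 of 5 scalings.

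Without Normal 1 the blood loss comparison changed for a pair of genes. Icam2 was then called lower (-0.88) and Itga6 higher (1.08). Icam2 was also called lower with size factors over all panel genes (-1.05) and with all 14 housekeeping genes (-1.002), with the 12 columns that include Normal 4 (-0.75) and with each sample's lower quartile of counts taken off as background (-0.99), and Pecam1 with size factors over all panel genes (-0.77). The sign of Itgb2 in this comparison turned in 4 of 23 alternatives, within -0.46 to 0.22, so no direction can be given for it.

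Ratios of raw counts within a sample do not depend on library scaling. Ptprc encodes CD45, a surface phosphatase of leukocytes, and served as the denominator. The ratios are thus not levels per erythroid cell. Itgb2 per Ptprc was 0.0565 to 0.0977 in hypoxia samples, 0.105 to 0.197 in blood loss samples and 0.0901 to 0.119 in normal samples. Itga6 per Ptprc was 0.0312 to 0.0481 in hypoxia, 0.0588 to 0.149 in blood loss and 0.0192 to 0.0594 in normal samples. Both ratios were lower in all hypoxia than in all blood loss samples and overlapped with normal. Icam2 per Ptprc was 0.0433 to 0.0703 in hypoxia, 0.0552 to 0.141 in blood loss and 0.0792 to 0.114 in normal samples, so hypoxia separated from normal only. Pecam1 per Ptprc was 0.131 to 0.259 in hypoxia, 0.224 to 0.455 in blood loss and 0.252 to 0.268 in normal samples, with overlap throughout. Ptprc itself was called lower in hypoxia than in normal samples, with a log2 fold change of -0.88 (edgeR adjusted p = 0.0124), a call lost without Normal 2 and under 3 of 5 scalings. Between the treatments its log2 fold change was -0.23, with no call. With size factors over all panel genes it was 0.67, a call higher in hypoxia. Relative to the sample's median endogenous gene, Ptprc was 28.4 to 40.85 in hypoxia and 15.7 to 25.9 in blood loss samples. The part of this denominator in the ratio differences was not tested. How many of all tested genes separate by their ratio to Ptprc was not counted.

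**Figure D3:**
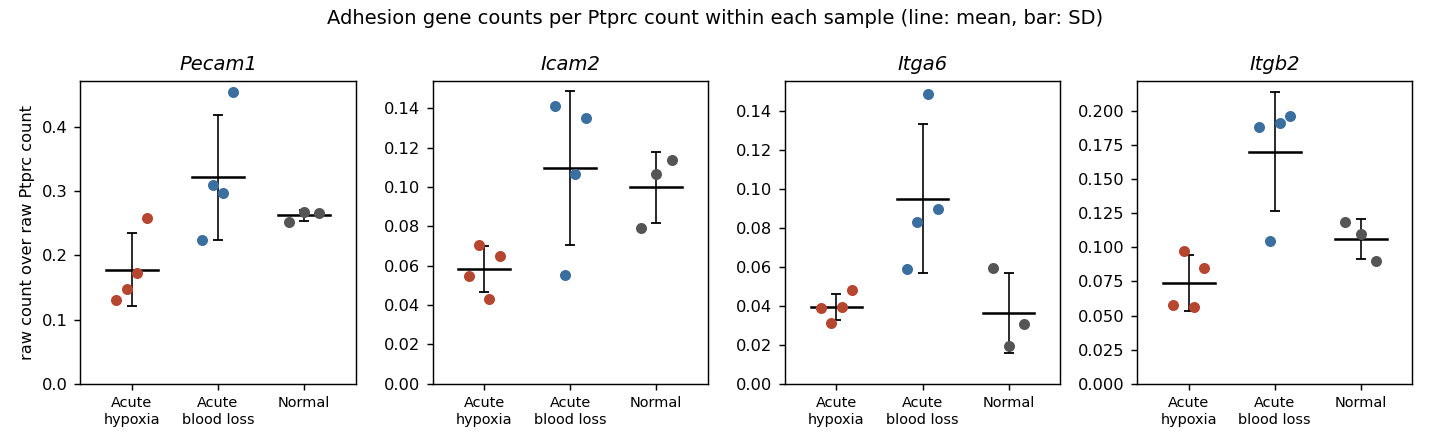
Raw count of each of the 4 genes divided by the raw Ptprc count of the same sample, each axis starting at 0. Points are samples, the line is the group mean and the bar its SD (n = 4 hypoxia, 4 blood loss, 3 normal). Itga6 and Itgb2 ratios in hypoxia lie below all blood loss samples.

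Ratios to the partner chains also separated some groups. Itgal per Itgb2 was 1.72 to 3.37 in hypoxia samples, 1.11 to 1.89 in blood loss samples and 0.979 to 1.6 in normal samples. Every hypoxia sample thus had more Itgal for its Itgb2 than any normal sample. Itgb1 per Itga6 was 8.05 to 22 in hypoxia, 3.57 to 7.2 in blood loss and 6.5 to 14.8 in normal samples, with hypoxia wholly above blood loss. Itga4 per Itga6 was 4.04 to 12.9 in hypoxia, 2.43 to 4 in blood loss and 2.62 to 12.2 in normal samples, again with hypoxia above blood loss by a narrow gap. Itgam and Itgax had raw counts under 20 in every treated sample, and their ratios to Itgb2 overlapped between all groups. Among the 4 genes themselves, the ratios of Icam2, Itgb2 and Itga6 to Pecam1 overlapped in every comparison.

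The partner genes were also tested. The choice of the 4 genes did not name them, but they were listed with earlier results of these data known. Itgb1, the common beta chain of matrix receptors, had a log2 fold change of -0.04 for hypoxia against blood loss, -0.24 for hypoxia against normal and -0.20 for blood loss against normal, and was called in none of them. Itgal gave -0.70, -0.56 and 0.14 in the same 3 comparisons and Itga4 -0.41, -0.66 and -0.25, also with no call. Under size factors over all panel genes the sign of Itgb1 for hypoxia against blood loss turned, to 0.83, a call higher (edgeR adjusted p = 0.0105).

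Other adhesion genes numbered 31 on the panel, of which 14 were tested. Of the 17 not tested, 15 had raw counts under 20 in all treated samples. In hypoxia against normal 0 of the 14 were called higher (7.54% of all tested genes) and 3 lower (32.9% of all), with a median log2 fold change of -0.51 against -0.49 over all tested genes. In blood loss against normal 1 was called higher (9.92% of all) and 2 lower (17.1% of all), with a median of -0.35 against -0.24. In hypoxia against blood loss 0 were called higher (0.397% of all) and 1 lower (8.33% of all), with a median of -0.18 against -0.25. These pooled medians cover lists that lay apart from each other, none of which was tested as a list. The 4 tested immunoglobulin-fold genes had a median of -1.01 in hypoxia against normal, -0.58 in blood loss against normal and -0.43 in hypoxia against blood loss. The 7 tested selectins, their ligands and other glycoproteins had medians of -0.49, -0.68 and 0.38 in the same comparisons, and the 3 integrin chains -0.56, -0.20 and -0.41.

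Icam1, the inducible LFA-1 ligand, was the 1 gene called higher after blood loss among the tested adhesion genes outside the 4. Its housekeeping-scaled levels were 7.58, 3.94, 13.7 and 15.8 in hypoxia samples, 52.3, 40.7, 59.3 and 39.4 in blood loss samples, and 7.91, 13.9 and 8.08 in normal samples. Every blood loss sample was above every other sample. The log2 fold change was 2.16 (SE 0.40, edgeR adjusted p = 0.000388) for blood loss against normal and -2.09 (SE 0.38, edgeR adjusted p = 0.00219) for hypoxia against blood loss. Both calls held in 11 of 11 leave-outs and 5 of 5 scalings. Raw counts were only 8 to 28 in the blood loss samples. Icam2, the other LFA-1 ligand, had a log2 fold change of -0.70 for blood loss against normal, and the difference between the ligands was not tested.

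Thy1, a surface glycoprotein of T cells, was called lower after both treatments. Its log2 fold changes were -1.60 for hypoxia against normal (SE 0.30) and -1.55 for blood loss against normal (SE 0.37). Its raw count reached 20 in 3 normal samples and 1 hypoxia sample, and was under 20 in all 4 blood loss samples. It thus passed the filter mainly through the group where it was high, and its calls are a description. In 4 of the 11 leave-outs it failed the filter on low counts. Cd48, a ligand of Cd2 and Cd244 on blood cells, fell after hypoxia by 1.49 on the log2 scale (SE 0.29, edgeR adjusted p = 0.000245). Cd164, a sialomucin of blood progenitors, fell after blood loss by 0.87 on the log2 scale (SE 0.26, edgeR adjusted p = 0.0177), a call lost without Normal 2 (-0.78) or Blood loss 4 (-0.77). Of 3 tested integrin signalling genes, Ptpn6 (SHP-1, a phosphatase that docks on Pecam1) was lower with log2 fold changes of -1.83 for hypoxia against normal (edgeR adjusted p = 4.11e-05) and -1.45 for blood loss against normal (edgeR adjusted p = 0.00112). Syk, a kinase of integrin and antigen receptor signals, was lower in hypoxia than in normal samples by -0.76 (edgeR adjusted p = 0.0365), a call lost under all 5 other scalings.

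**Figure D4:**
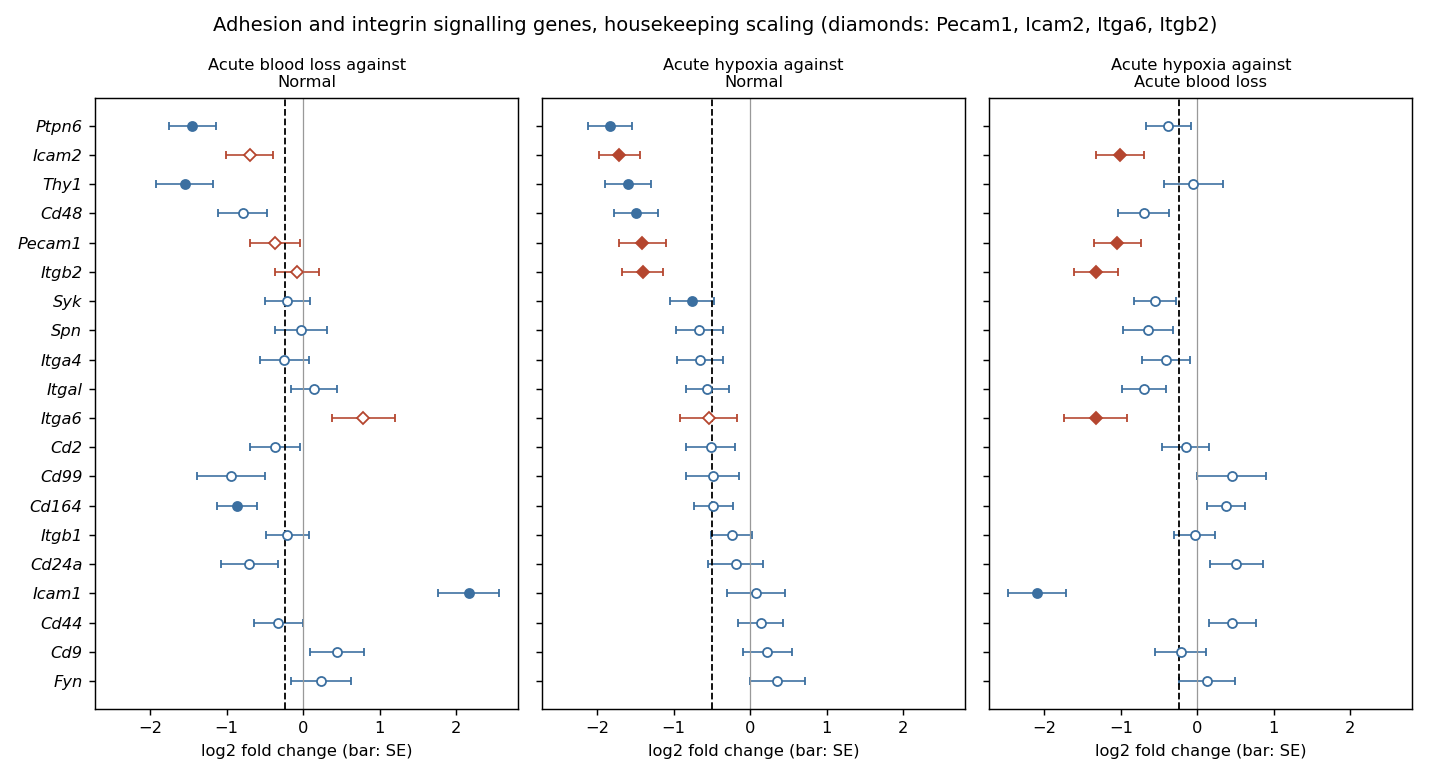
Log2 fold changes with SE bars of 13 tested adhesion genes and 3 integrin signalling genes (circles) and of Pecam1, Icam2, Itga6 and Itgb2 (diamonds) in 3 comparisons, ordered by hypoxia against normal. Filled markers have an edgeR adjusted p under 0.05, and the dashed line is the median of all 252 tested genes. Icam1 is far right in blood loss against normal (2.16) and far left in hypoxia against blood loss (-2.09).

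By their profile over the 11 samples, the genes most like each of the 4 were found by the root mean square difference of gene-centred log2 levels. Nearest to Pecam1 were Ciita (0.322), Icosl (0.328) and Ikbke (0.334), where the median gene differed by 0.756. Icam2 was nearest to Cd48 (0.313), Itgb2 (0.338) and Cd1d1 (0.363), with a median of 0.71. Itgb2 in turn was nearest to Icam2 (0.338), Cd247 (0.362) and Irak4 (0.387), with a median of 0.735. The nearest genes to Itga6 were Ctla4 (0.449), Cd247 (0.451) and Casp1 (0.499), farther away than those of the other 3, with a median of 0.852. Library scale is common to all genes of a sample and takes part in this likeness. The profiles also hold the group differences known when the 4 genes were chosen, so likeness among the 4 supports nothing.

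Endothelial content could hardly be read from the panel, since 4 of 17 listed endothelial markers were on it (Cdh5, Cd34, Vcam1 and Sele) and none was tested. Cdh5, the endothelial cadherin that defines the cell type, had raw counts of 1 to 3 in hypoxia samples, 1 to 3 in blood loss samples and 2 to 14 in normal samples, where the lowest count in the files is 1. The summed scaled level of these 4 was 6.19 to 20.7 in hypoxia, 27.7 to 66.7 in blood loss and 15.8 to 34.5 in normal samples. Their raw sums were only 11 to 21 in hypoxia, 9 to 21 in blood loss and 14 to 176 in normal samples. The blood loss sums are thus counts near the floor divided by small sample factors, and the groups are not ordered by them. The word endothelial therefore describes what Pecam1 and Icam2 are known for, and their source among the cells of these samples was not tested.

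Marker lists of other cells moved alongside the 4 genes, and their part in the differences was not tested. Summed over 21 T and NK cell markers, the scaled level was 208 to 350 in hypoxia, 326 to 541 in blood loss and 548 to 884 in normal samples, and 8 of 10 tested markers were called lower in hypoxia against normal, where 32.9% of all tested genes were. Of the same 10 markers, 2 were called lower in hypoxia against blood loss (8.33% of all), and 6 lower and 1 higher in blood loss against normal (17.1% and 9.92% of all). Among them Cd4, Cd27 and Prf1 passed the filter on low counts with 3 normal samples and 1 hypoxia sample. The filter thus favoured markers that were high in the normal samples, and nothing is read from these counts. The sum of 8 macrophage markers was 38.3 to 175 in hypoxia, 163 to 301 in blood loss and 175 to 362 in normal samples. Of 3 tested, 2 were called lower in hypoxia against normal (32.9% of all) and 1 in blood loss against normal (17.1% of all). The macrophage marker Emr1 also passed the filter with 3 normal samples and 1 hypoxia sample. For 13 B cell markers the sum was 1188 to 1982 in hypoxia, 1163 to 2314 in blood loss and 1895 to 3723 in normal samples. Of 12 tested, 8 were called lower in hypoxia against normal (32.9% of all) and 4 in blood loss against normal (17.1% of all). On the deposited scale the T and NK cell sum was 282 to 508 in hypoxia, 312 to 400 in blood loss and 617 to 1172 in normal samples. The B cell sum there was 1585 to 2873 in hypoxia, 1141 to 1769 in blood loss and 2513 to 3676 in normal samples. The T and NK cell sum was thus lower in every treated than in every normal sample on both scales. On the housekeeping scale the gap was narrow, with 541.3 in Blood loss 3, from a raw sum of 73, against 547.9 in Normal 3. Hypoxia and blood loss samples overlapped on both scales for both lists. Platelet and megakaryocyte markers (3 on the panel) summed to 31 to 41.6 in hypoxia, 21.5 to 111 in blood loss and 20.5 to 23.4 in normal samples. The 1 tested marker was called higher in blood loss against normal (9.92% of all). The 6 granulocyte markers summed to 1648 to 3797 in hypoxia, 3057 to 7025 in blood loss and 1764 to 2394 in normal samples. On the deposited scale they summed to 2698 to 5505 in hypoxia, 2454 to 6893 in blood loss and 2035 to 2339 in normal samples. Hypoxia and normal samples thus overlapped on the housekeeping scale only. Of 3 tested, 2 were called higher in blood loss against normal (9.92% of all) and 1 in hypoxia against normal (7.54% of all). None of the markers tested in these lists, T and NK cells aside, was called in hypoxia against blood loss (8.33% of all lower and 0.397% higher). Erythroid and progenitor markers (4 on the panel, without the globins) summed to 315 to 929 in hypoxia, 405 to 719 in blood loss and 332 to 606 in normal samples. Tfrc, the transferrin receptor of erythroblasts and one of the erythroid markers, had log2 fold changes of 1.28 for hypoxia against normal and 1.61 for blood loss against normal. Of the 3 tested markers of this list 2 were called higher and 1 lower in each of these comparisons. Over all tested genes 7.54% were called higher and 32.9% lower in hypoxia against normal. In blood loss against normal these shares were 9.92% and 17.1%. The one called lower was Cd55, a complement regulator carried by many blood cells, at -1.11 for hypoxia against normal (edgeR adjusted p = 0.00272) and -1.13 for blood loss against normal (edgeR adjusted p = 0.00589); it is named after its values were seen. Beside Tfrc, the one called higher was Tal1, a transcription factor of blood progenitors and erythroid cells, at 3.405 and 3.82 in these comparisons. Its raw count reached 20 in 3 hypoxia, 1 blood loss and 0 normal samples. Tal1 thus passed the filter only through the groups where it was high, and its calls are a description. Within the hypoxia samples scaled Tal1 ran from 7.58 to 87.55.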

How the data were processed

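Raw counts, the authors' normalized signal and their log2 table were deposited for 12 columns. Per the values deposited, the count is a whole number per gene, the normalized signal is the raw count divided by 1 size factor per sample, and the log2 value is that of the normalized signal plus 1. How background was handled and which software counted the probes is not given in the sources used here. All columns matched a sample label. The 4 genes, the lists of other genes and the tests were chosen with earlier results of these data known.

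Raw counts of 11 samples (4 hypoxia, 4 blood loss, 3 normal) were fitted together with the robust quasi-likelihood test of edgeR 4.0.16 (R 4.3.3), group being the sole term. Sample factors were geometric means over those 6 of the 14 housekeeping genes whose mean raw count reached 100. Of 547 endogenous genes, 252 with a raw count of at least 20 in at least 4 samples were tested, with Benjamini-Hochberg adjustment over all of them at 0.05. All 4 genes passed this filter. The fit was tested on simulated counts. Alternatives were DESeq2 1.42.0, TMM and other factors, other filters, leave-outs and a replicate block. Same-numbered samples did not deviate together: over 10 pairs the correlation was -0.254 to 0.13, with 2 over 0.1, so the numbers were not taken as pairs.

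Named genes are the 4 genes, the 3 tested genes most like each in profile, the adhesion genes called in a comparison, integrin partners and ligands, Ptprc and Tfrc. Depth, given as total counts, was lowest after blood loss and limits precision there. One called adhesion gene is not reported here by name. No sequence is printed, and no coordinates are given because the files name no genome build; the RefSeq annotation of GRCm38.p6 served only to say which genes neighbour each other.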

Additional observations from a re-analysis of the deposited data

Results flagged for a closer look

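Of 78 groups of 4 samples examined, 7 held a sample far from the other 3 by Dixon's criterion, where chance alone gives about 1 in 20. Housekeeping-scaled Itgb2 was 66.7 in Blood loss 3, the shallowest sample, and 48.4 to 49.2 in the others of that group. Itgam over Itgb2 was 0.773 in Hypoxia 1 and 0.233 to 0.32 in the other hypoxia samples, from a raw Itgam count of 17. Itgb2 over Ptprc was 0.105 in Blood loss 2 and 0.188 to 0.197 in the other blood loss samples. Housekeeping-scaled Thy1 was 22.5 in Hypoxia 4, against 10.8 to 12.8 in the other hypoxia samples, and the summed T and NK cell markers were 350 there, against 208 to 214. In Hypoxia 2 the summed endothelial markers were 20.7, against 6.19 to 8.56 in the other hypoxia samples, and the summed erythroid and progenitor markers were 929, against 315 to 394. The causes were not tested.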

How the results depend on the processing

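Raw counts of 5 to 81 for the 4 genes in blood loss samples and 3 normal samples that differ among themselves limit these comparisons. Of 276 values of the 4 genes under other settings, 258 moved by less than the spread between samples, 18 moved further and 0 reversed a call. Of 1299 values of other named genes, 3 reversed into a higher call, all for hypoxia against blood loss with size factors over all panel genes: Itgb1 at 0.83, Cd2 at 0.78 and Ptprc at 0.67. The cause of each change below was not tested, except that settings without a filter also test genes of very low counts.

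For hypoxia against blood loss, size factors over all panel genes put Pecam1 at -0.19, Icam2 at -0.19, Itga6 at -0.46 and Itgb2 at -0.49, and all 14 housekeeping genes put Icam2 at -0.55 and Itgb2 at -0.87. For hypoxia against normal, TMM factors gave Pecam1 -0.90, Icam2 -1.17 and Itgb2 -0.88, size factors over tested genes gave Icam2 -1.25 and Itgb2 -0.96, and size factors over all panel genes gave Pecam1 -0.96, Icam2 -1.25 and Itgb2 -0.95. For blood loss against normal, size factors over all panel genes gave Icam2 -1.05 and Itgb2 -0.46, TMM factors gave Itgb2 0.22 and all 14 housekeeping genes gave Itgb2 -0.38.

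Numbers of genes called varied more. For hypoxia against blood loss 1 gene was called higher, against 7 with TMM factors, 6 with size factors over tested genes, 96 with size factors over all panel genes, 5 with all 14 housekeeping genes, 4 without Rpl19 among them, 2 with the filter at 3 samples, 5 with no filter, 4 with 12 columns, 2 with only the groups compared and 4 with DESeq2. The 21 called lower became 11 with TMM factors, 11 with size factors over tested genes, 1 with size factors over all panel genes, 1 with all 14 housekeeping genes, 230 with no filter and 39 with 12 columns. For hypoxia against normal the 19 called higher became 55 with TMM factors, 49 with size factors over tested genes, 51 with those over all panel genes and 34 with no filter. The 83 called lower became 44, 51 and 50 under those scalings, 162 with no filter and 141 with 12 columns. For blood loss against normal the 25 called higher became 39 with TMM factors, 13 with size factors over all panel genes, 14 with all 14 housekeeping genes and 183 with no filter. The 43 called lower became 114 with size factors over all panel genes, 85 with all 14 housekeeping genes and 73 with 12 columns.

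Among the other adhesion genes, hypoxia against blood loss gave 6 higher with size factors over all panel genes, and lower calls of 2 with the filter at 3 samples, 13 with no filter and 2 with 12 columns. Hypoxia against normal gave 1 higher with the filter at 3 samples, 1 higher and 9 lower with no filter, and 7 lower with 12 columns. Blood loss against normal gave 2 higher with the filter at 3 samples, 10 higher and 4 lower with no filter, 9 lower with size factors over all panel genes, 6 lower with all 14 housekeeping genes and 4 lower with 12 columns.

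Leaving out 1 sample at a time, hypoxia against blood loss called 1 to 4 genes higher and 5 to 37 lower, hypoxia against normal 10 to 19 higher and 45 to 100 lower, and blood loss against normal 13 to 30 higher and 20 to 58 lower. For adhesion genes these ranges were 0 to 0 and 1 to 2, 0 to 0 and 2 to 4, and 1 to 1 and 0 to 5. Taking off each sample's lower quartile as background, an alternative chosen after seeing the data, called 8 genes lower for hypoxia against blood loss, among them Itgb2 (-1.28) but not Pecam1, Icam2 or Itga6, and 16 higher and 4 adhesion genes lower for blood loss against normal. With the replicate block 16 genes were called lower and 1 higher for hypoxia against blood loss, Icam2 (-0.99) and Itga6 (-1.37) losing their call, 84 lower and 20 higher for hypoxia against normal, and 41 lower and 23 higher for blood loss against normal. The 12 columns include the derived Normal 4.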
